A study of Populus tomentosa with 12 samples.

Results

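The response of poplar shoots to iron (Fe) deficiency was measured by RNA sequencing in 6 of the 12 libraries of the series, those whose tissue label is Shoot. They are 3 libraries from Fe-deficient and 3 from Fe-sufficient plants of Populus tomentosa, Chinese white poplar. The other 6 libraries are from roots of the same treatments and serve only for comparison here. All plants were micropropagated on woody plant medium with 1.5% sucrose and 1 mg/L of the auxin NAA, under a photon flux of about 50 µmol per m2 and s for 16 h daily at 24 °C. Seedling-stage plants with shoots of about 10 cm then went into a solution of that medium with 100 µM Fe (sufficient) or 0 µM Fe (deficient). How long the treatment lasted is not stated in the labels. Replicates are called biological, but which plants or how many went into a library is not stated, so p-values measure the spread between these libraries.

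Iron is the cofactor of heme proteins and of the iron-sulfur clusters in photosystem I and ferredoxin, and steps of chlorophyll synthesis need it. Most of the iron of a leaf lies in its chloroplasts. A plant that runs short of iron therefore yellows in its young leaves, and its shoots also send signals that adjust uptake by the roots. In bulk shoots, fewer cells of a type and less RNA per cell cannot be told apart.

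Gene IDs are printed as the files give them. A reference table of 60139 P. tomentosa genes held none of the 42950 IDs, so no ID was given a name or a role. By the rule for unnamed IDs, 2 IDs that rose and 2 that fell are printed, and the other genes are described as classes by level.

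Gene counts per shoot library totalled 5360670 to 6149779, and 72.6% to 73.1% of all their reads were not counted in a gene. On average, 27.5% of reads with Fe and 27.8% without fell in no gene, and 14.8% and 15.8% were unaligned. Ambiguous reads made up 0.634% and 0.620%. The rest of the uncounted reads, a larger part than any of these, lay in other rows of the counter, which were not broken down here. The tissue label was checked on expression. A group of 37 IDs reached at least 10 CPM (gene counts scaled to a library total of 1e+06) in every shoot library with 0 counts in every root library, and 0 IDs showed the reverse. Spearman's rho between shoot libraries was at least 0.963 over all IDs, and between a shoot and a root library at most 0.880. On the first principal component of log2 CPM (32.5% of the variance), Fe-sufficient replicate 2 was at 68.3 and the other shoot libraries at -21.4 to -6.77. The second component took 28.5% and placed the 3 Fe-deficient libraries at 13.2 to 42.1 and the Fe-sufficient ones at -44.0 to -1.52, without overlap.

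The comparison asked which shoot transcripts change when Fe is withheld. Falls made up the larger part of the calls among the most abundant transcripts of the shoot, where 23 of 88 genes above 1000 CPM fell, and rises were found among transcripts of low and middle level. Of 21665 tested genes, 252 (1.16%) changed by edgeR's quasi-likelihood test at an adjusted p under 0.05. Of these, 137 rose (0.632% of the genes tested) and the others fell (0.531%). In all 252 of them the 3 Fe-deficient values lay on one side of the 3 Fe-sufficient values, which held for 14.5% of all tested genes. A change of at least 2-fold was found in 124 of the genes that rose and in 69 of those that fell.

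**Figure D1:**
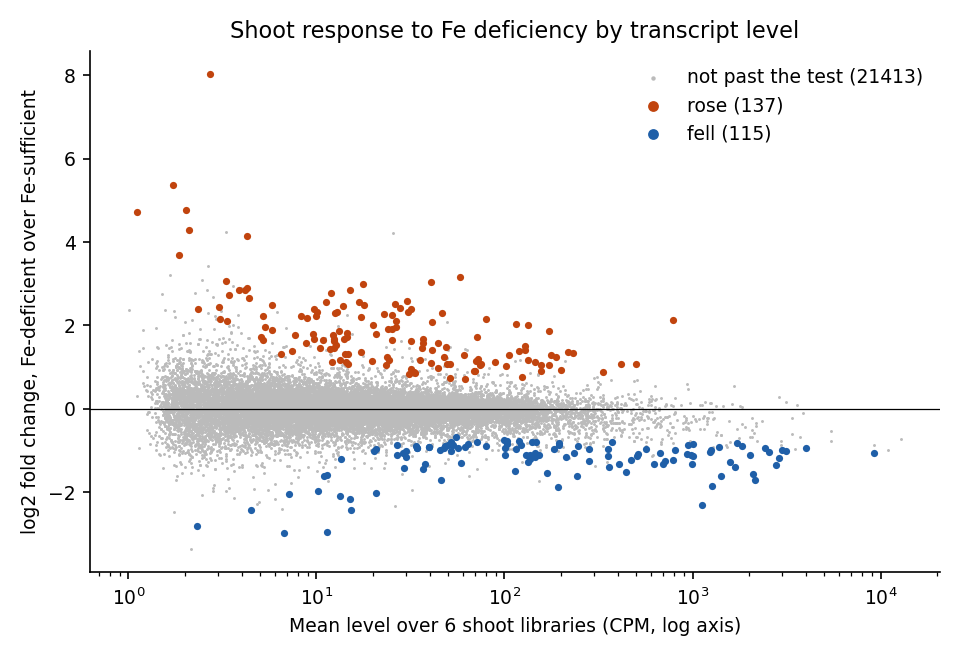
Mean level of each of the 21665 tested genes over the 6 shoot libraries (CPM, log axis) against its log2 fold change, Fe-deficient over Fe-sufficient. Of the 137 genes that rose, 23 lie at 100 to 1000 CPM, which is 1.39% of that smaller class, against 0.675% at 10 to 100 CPM. Genes that fell reach the right end of the plot. No gene rose there, which says little for so few genes, since 0.632% of all tested genes rose.

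The share of genes that fell grew with transcript level. Classes were cut by the mean over all 6 shoot libraries. Among 7925 genes at 1 to 10 CPM, 33 rose and 4 fell. Among 12000 genes at 10 to 100 CPM, 81 rose and 40 fell. At 100 to 1000 CPM, 23 of 1652 genes rose and 48 fell, or 1.39% and 2.91%. Above 1000 CPM, 23 of 88 genes fell, which is 26.1% of that class against 0.531% of all tested genes. By edgeR 0 of the 88 rose, against 0.632% of all tested genes. At that share, 0 rises among 88 genes says little. An unadjusted p under 0.05 by edgeR was found for 1 higher and 50 lower genes of the class. Over all tested genes, 9.09% had such a p in either direction. Within the class, 1 gene rose by DESeq2 and 1 by edgeR with library totals as the only scaling. The largest log2 fold change among these 88 was 0.54. Of the 88 genes, 55 (62.5%) were lower in all Fe-deficient than in all Fe-sufficient libraries and 1 was higher, against 7.39% and 7.11% of all tested genes.

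Between 10 and 1000 CPM the balance of rises and falls depended on single libraries and on the scaling. At 100 to 1000 CPM it was 9 rises and 4 falls without Fe-deficient replicate 1, 10 and 5 without Fe-deficient replicate 2, and 36 and 29 with library totals alone. At 10 to 100 CPM it was 141 rises and 172 falls without Fe-sufficient replicate 2. Over the 6 omissions, rises numbered 4 to 53 at 1 to 10 CPM, 36 to 141 at 10 to 100 CPM and 9 to 34 at 100 to 1000 CPM. Falls in these 3 classes numbered 2 to 24, 3 to 172 and 4 to 112.

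**Figure D2:**
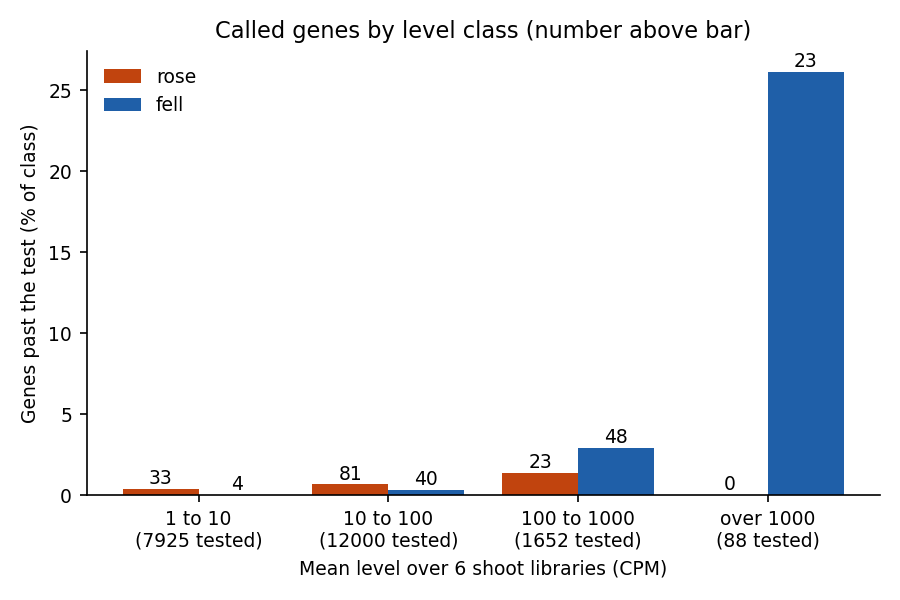
Percentage of tested genes that rose (red) or fell (blue) in Fe-deficient shoots, by class of mean CPM over the 6 shoot libraries, with the number of genes above each bar. With all 6 libraries and TMM, rises outnumber falls in both classes below 100 CPM (without Fe-sufficient replicate 2, 141 rose and 172 fell at 10 to 100 CPM), and above 1000 CPM 26.1% of the genes fell.

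Folds and errors also differed by class. The median log2 fold change of genes that rose was 2.39 at 1 to 10 CPM, 1.62 at 10 to 100 CPM and 1.23 at 100 to 1000 CPM. The lower genes are measured with more error, with a median standard error of the log2 fold change of 0.37 at 1 to 10 CPM against 0.19 above 1000 CPM. The smallest log2 fold change that passed edgeR's test was 1.31 in size at 1 to 10 CPM and 0.69 at 10 to 100 CPM. Falls had medians of -0.998, -1.10 and -1.05 in the classes from 10 CPM upwards.

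The shift of the abundant class was not limited to genes that passed the test. Its median log2 fold change was -0.59, with quartiles of -0.92 and -0.22, and 74 of its 88 genes (84.1%) had a value below 0. Over all tested genes the median was -0.01 and 51.0% lay below 0. At 100 to 1000 CPM the median was -0.08 and 62.1% lay below 0, but with library totals alone that median was 0.11.

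The shift was present in each library. Relative to each gene's mean log2 CPM over the 6 libraries, the median of the 88 genes was 0.42, 0.27 and 0.17 in Fe-sufficient replicates 1, 2 and 3. It was -0.26, -0.37 and -0.21 in Fe-deficient replicates 1, 2 and 3. The groups did not overlap (the two-sided exact permutation p of 3 against 3 libraries cannot go below 0.1). At 10 to 100 CPM all 6 medians lay between -0.01 and 0.02.

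**Figure D3:**
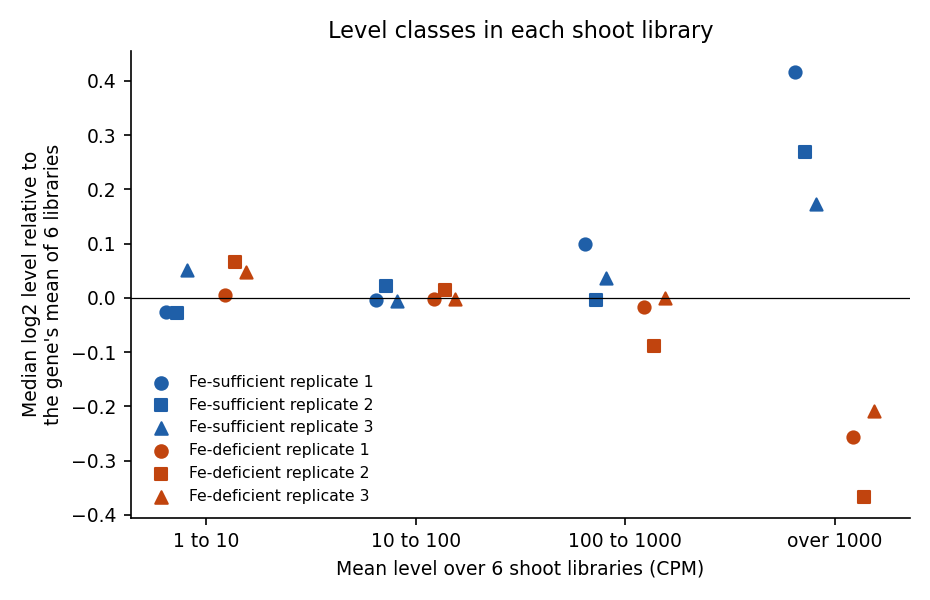
Median log2 level of the genes of each class in each shoot library, relative to the gene's own mean over the 6 libraries, with Fe-sufficient libraries in blue and Fe-deficient ones in red. The groups part above 1000 CPM, at 0.17 to 0.42 against -0.37 to -0.21, and lie near 0 in the class of 10 to 100 CPM.

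Levels rest on TMM scaling, with factors of 0.889 to 0.960 for Fe-sufficient libraries and 1.06 to 1.10 for Fe-deficient ones. With library totals alone the median of all tested genes moved to 0.19 and that of the 88 abundant genes to -0.39. The distance between those medians was -0.59 with TMM and -0.58 with library totals. A change of scaling moves all log2 fold changes by nearly the same amount, so this distance could hardly differ and tests nothing. Of the calls, 54.4% rose with TMM, and 79.4% of 306 rose with library totals.

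The same pattern was read from the counts without scaling factors. The 100 most abundant genes of a library took 26.7%, 24.5% and 22.8% of its gene counts in Fe-sufficient replicates 1, 2 and 3, and 18.9%, 17.6% and 18.8% in Fe-deficient replicates 1, 2 and 3. Every Fe-deficient library lay below every Fe-sufficient one. The group means were 24.7% ± 1.98 and 18.4% ± 0.758 (SD, n = 3 each). By a two-sided exact permutation test p was 0.1, which is the smallest possible, and 0.129 adjusted over 9 library measures. With the 10 genes most abundant over the 6 libraries left out of all counts, the share of each library's next 100 dropped by 4.62 percentage points in Fe-deficient libraries.

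Counts were spread over more genes in Fe-deficient shoots. The number of genes that together held 50% of the gene counts was 773, 959 and 1007 in Fe-sufficient replicates 1, 2 and 3. It was 1313, 1472 and 1306 in Fe-deficient replicates 1, 2 and 3. No Fe-deficient library came below the Fe-sufficient ones, with means of 913 ± 124 and 1364 ± 93.9 genes (SD, n = 3 each; exact permutation p 0.1, adjusted 0.129). The share of counts in genes under 10 CPM was 4.07% ± 0.266 with Fe and 4.73% ± 0.145 without (SD, n = 3 each; exact permutation p 0.1, adjusted 0.129).

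More genes were detected without Fe. Fe-sufficient replicates 1, 2 and 3 had at least 1 count in 27402, 27682 and 27720 genes, and Fe-deficient ones in 27956, 28215 and 28172 (exact permutation p 0.1, adjusted 0.129). Fe-sufficient replicate 1 had the most gene counts of the 6 libraries and the fewest detected genes. A count in every library of 1 group, 10 or more in all, beside 0 counts in the whole other group, was seen for 26 genes in Fe-deficient and for 2 in Fe-sufficient shoots. The 26 genes had a median of 12 counts, and 1 of them had enough counts to enter the test, where it rose. Only 2 of the 26 had 0 counts in all root libraries. The 26 became 62 without Fe-sufficient replicate 3, 55 when leaving out Fe-sufficient replicate 1 or 2, and 11 without Fe-deficient replicate 1 or 3. The 2 became 15, 9 and 8 without Fe-deficient replicates 2, 1 and 3, and 1 without Fe-sufficient replicate 1 or 3.

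Summed over genes, the falls outweighed the rises in level. The genes that fell went from 98239 to 44501 CPM in total, taking the group means, and the 10 largest falls made up 47.0% of that difference. The 137 genes that rose went from 4223 to 11145 CPM. These sums were taken over genes chosen by the same test and are given as a description.

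Among called genes, the largest rise in level was that of Potri.008G099900. It was at 299, 241 and 335 CPM in Fe-sufficient replicates 1, 2 and 3, and at 1402, 1363 and 1090 CPM in Fe-deficient ones. The lowest Fe-deficient library exceeded the highest Fe-sufficient one by far more than either group's spread. Its mean went from 292 ± 47.5 to 1285 ± 170 CPM (SD, n = 3 each), or a rise of 2.14 ± 0.198 (SE) on the log2 scale (adjusted p by edgeR 0.000683). The call held without each of the 6 libraries in turn. Its mean over all 6 libraries was 788 CPM, against a median of 23.8 CPM for the genes that rose. Choosing an ID by its rise in CPM favours such a high level. All printed IDs were chosen among called genes whose shoot groups do not overlap, so that separation was fixed by the choice.

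In roots Potri.008G099900 was a rare transcript, at 0.590 ± 0.232 CPM with Fe and 3.91 ± 3.33 CPM without (SD, n = 3 each). The Fe-deficient root libraries held 1.53, 2.50 and 7.72 CPM and the Fe-sufficient ones 0.850, 0.407 and 0.512 CPM, without overlap. Its root log2 fold change was 2.73 ± 0.700 (SE) and did not pass the test (adjusted p by edgeR 0.130). The difference between the shoot and root responses was -0.62 ± 0.674 (SE; adjusted p by edgeR 0.786), so unlike responses were not shown.

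The next rise in level among called genes was that of Potri.001G168200, with close replicates. It stood at 332, 311 and 314 CPM in Fe-sufficient replicates 1, 2 and 3 and at 680, 648 and 702 CPM in Fe-deficient ones. Both groups were narrow and far apart. The log2 fold change was 1.08 ± 0.160 (SE; adjusted p by edgeR 0.00682). Without Fe-deficient replicate 1 the adjusted p by edgeR was 0.0605. Its root values went the other way, from 88.9 ± 7.08 to 64.7 ± 1.56 CPM (SD, n = 3 each). This root log2 fold change of -0.46 ± 0.112 (SE) did not pass the test in roots (adjusted p by edgeR 0.118). The responses differed between shoots and roots by 1.54 ± 0.184 on the log2 scale (SE; adjusted p by edgeR 0.00298).

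Among called genes, the largest fall in level was that of Potri.005G239300, the third most abundant tested transcript of the shoots. It was at 16398, 10707 and 10056 CPM in Fe-sufficient replicates 1, 2 and 3, and at 6291, 5181 and 6452 CPM in Fe-deficient ones. The groups did not overlap, although Fe-sufficient replicate 1 lay well above the others. It took 1.14% of gene counts on average with Fe and 0.636% without. The log2 fold change was -1.05 ± 0.222 (SE), just past the threshold (adjusted p by edgeR 0.0480). The call was lost without Fe-sufficient replicate 1 or any 1 Fe-deficient library (adjusted p by edgeR 0.119 to 0.269), with RLE or upper-quartile factors or library totals (0.0506 to 0.0562) and with the replicate block (0.0841).

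The ID listed directly before Potri.005G239300 was the second most abundant. It went from 14588 ± 4167 to 7363 ± 1031 CPM (SD, n = 3 each), also without overlap. Its log2 fold change of -0.99 ± 0.227 (SE) missed the threshold (adjusted p by edgeR 0.0683). Whether these neighbours are similar enough to share reads was not tested. In roots Potri.005G239300 was at 221 ± 23.2 CPM with Fe and 315 ± 51.9 CPM without (SD, n = 3 each), which is 0.51 ± 0.157 (SE) on the log2 scale (adjusted p by edgeR 0.187). The shoot response lay below the root response by 1.57 on the log2 scale (shoot minus root -1.57 ± 0.307, SE; adjusted p by edgeR 0.0283). That call was lost without Fe-sufficient replicate 1 or any 1 Fe-deficient shoot library (adjusted p by edgeR 0.0582 to 0.0757).

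Potri.004G162400, the seventh most abundant tested transcript, had the next largest fall in level among called genes. Fe-sufficient replicates 1, 2 and 3 held 5916, 5644 and 4306 CPM, and Fe-deficient ones 2868, 2686 and 2703 CPM. The Fe-deficient values were close to each other and all below the Fe-sufficient ones. The log2 fold change was -0.94 ± 0.186 (SE; adjusted p by edgeR 0.0338). It did not pass without Fe-sufficient replicate 1 or any 1 Fe-deficient library (adjusted p by edgeR 0.105 to 0.205), with the replicate block (0.0856) or in 1 fit of all 12 libraries (0.129). In roots it was at 18.7 ± 7.35 and 12.1 ± 2.40 CPM (SD, n = 3 each; adjusted p by edgeR 0.391), and the difference between the tissues was -0.33 ± 0.365 on the log2 scale (SE; adjusted p by edgeR 0.789).

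**Figure D4:**
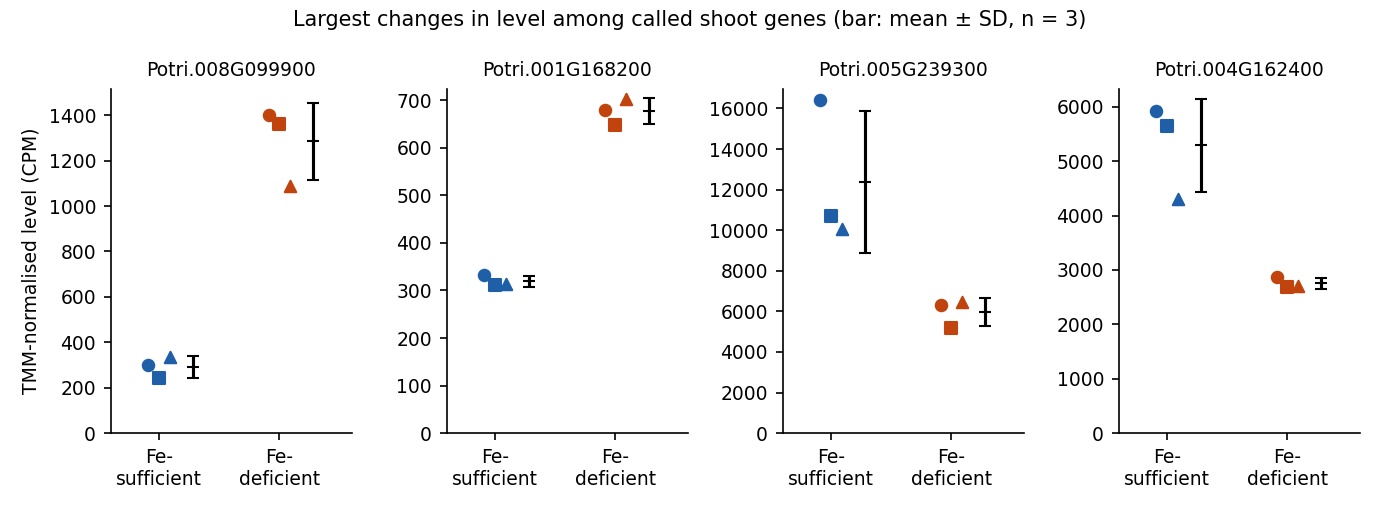
TMM-normalised level (CPM) of Potri.008G099900, Potri.001G168200, Potri.005G239300 and Potri.004G162400 in each shoot library, with Fe-sufficient libraries in blue, Fe-deficient ones in red, and the mean ± SD (n = 3) beside each group. No panel shows an overlap between the groups, which was a condition for choosing these IDs. Fe-sufficient replicate 1 of Potri.005G239300, at 16398 CPM, is the widest point of any group.

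Among the 10 most abundant shoot transcripts, 2 fell and 0 rose by edgeR, beside 0.531% and 0.632% of all tested genes. At the latter share, 0 rises among 10 or 100 genes says little. In 8 of the 10 all Fe-deficient libraries lay below all Fe-sufficient ones. Their log2 fold changes ran from -1.05 to 0.08, with a median of -0.74. An unadjusted p under 0.05 was found for 8 lower and 0 higher ones of the 10, beside 9.09% of all tested genes (either direction). Of the 100 most abundant, 26 fell, 0 rose by edgeR (2 were higher at an unadjusted p under 0.05), and 83 had a log2 fold change below 0. Of the 1000 most abundant, 56 fell and 13 rose, beside a background of 1.16% called over all tested genes.

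The genes that fell were mainly genes of higher level in shoots than in roots. Levels set across the tissues rest on libraries whose reads were assigned differently. In 83 of them the shoot mean was at least 4-fold the root mean (on CPM + 0.5), and the median log2 ratio of shoot to root was 3.75. Over all tested shoot genes, 3038 of 21665 exceeded 4-fold and the median log2 ratio was 0.10. All 23 genes that fell from above 1000 CPM were at least 4-fold higher in shoots, as were 74 of all 88 genes of that class. The genes that rose had a median log2 ratio of 0.17, and 30 of the 137 exceeded 4-fold.

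The root response of these genes was set beside their shoot response; the tissues share no library. Of the genes that fell in shoots, 104 were tested in roots, with a median root log2 fold change of 0.09 against -1.07 in shoots. The 23 from above 1000 CPM had root values of -0.62 to 1.37. Of these, 0 passed the root test by edgeR, where 0.563% of tested genes were called. An unadjusted p under 0.05 in roots was found for 3 of the 23, beside 3092 of 20269 genes tested in both tissues. The test of the difference itself passed for 17 of those 23 and for 55 of all that fell, each of the 55 with the lower value in shoots, beside 1.25% of all 25046 genes in that fit. Of the 137 genes that rose in shoots it passed for 55, in 3 of which the shoot response was the lower one. These genes were chosen for their shoot response, which favours such differences. Of the 137 genes that rose in shoots, 125 were tested in roots, with a median root log2 fold change of -0.03. By edgeR's root test 5 of the 125 rose and 0 fell. Over the 20269 genes tested in both tissues, 40 rose and 71 fell in roots. An unadjusted p under 0.05 in roots was found for 36 of the 125. The 110 shoot genes whose response differed became 52 when Fe-sufficient replicate 1 was left out, and 45 and 51 when Fe-deficient replicates 1 and 2 were.

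**Figure D5:**
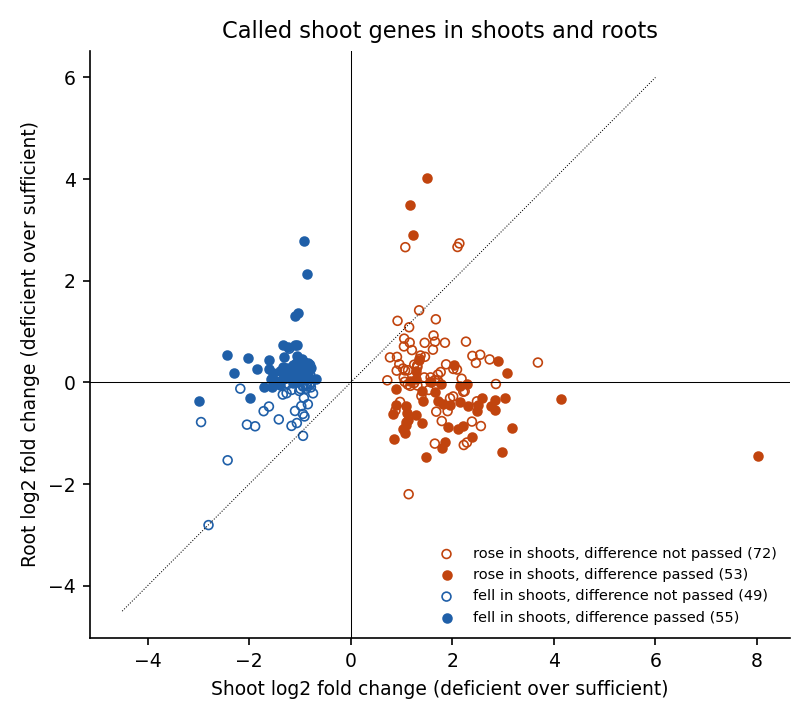
Log2 fold changes (Fe-deficient over Fe-sufficient) in shoots and in roots for the 229 called shoot genes that were also tested in roots. Filled points passed the test of the difference between tissues (53 that rose and 55 that fell in shoots), the dotted line marks equal responses, and most genes that fell in shoots lie near 0 on the root axis.

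Some calls of the same direction stood near each other in the ID list. Of the 137 genes that rose, 17 had another within 5 listed IDs on either side and under the same ID prefix. Of those that fell, 7 did. Whether these numbers exceed what the density of calls in the list would give was not tested. The rises formed 8 such runs, of which 1 held 3 genes among 4 listed IDs, with log2 fold changes of 1.09 to 2.39 and mean levels of 2.36 to 40.9 CPM. The falls formed 3 runs, the longest also with 3 genes. Leaving out 1 library changed the number of such rises to between 2 and 28, and that of such falls to between 0 and 42. By ID prefix, called genes made up 0.147% (prefix 17) to 1.86% (prefix 19) of tested genes.

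The number of calls depended on single libraries. It was 571 without Fe-sufficient replicate 2, of which 40.1% rose, and 249 of the 252 calls were among them. It was 114 without Fe-sufficient replicate 1, of which 62.3% rose. Leaving out Fe-deficient replicates 1, 2 and 3 gave 64, 72 and 127 calls, of which 76.6%, 81.9% and 66.1% rose. Falls from above 1000 CPM numbered 30 and 9 in the omissions of Fe-sufficient replicates 2 and 1, and 3, 3 and 9 in those of Fe-deficient replicates 1, 2 and 3. The median log2 fold change of the 88 abundant genes stayed between -0.70 and -0.55 over the 6 omissions. An omission also leaves fewer libraries to test with, and these effects were not told apart.

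A set of 58 genes was called with all libraries and in each of the 6 omissions, of which 46 rose and 12 fell. The 46 had log2 fold changes of 1.20 to 8.02 (median 2.14; the highest is of a gene with 0 counts in all Fe-sufficient libraries and is set by the fit's prior count). The 12 had log2 fold changes of -2.98 to -1.48 (median -1.93), and 3 of them lay above 1000 CPM.

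Replicates of the Fe-sufficient group varied more. The median SD of log2 CPM over tested genes was 0.29 with Fe and 0.21 without (n = 3 each). Without Fe-sufficient replicate 2, the median absolute difference between the remaining Fe-sufficient pair was 0.26, against 0.36 and 0.38 for the pairs that include it and 0.23 to 0.27 for pairs of Fe-deficient libraries. The mean Spearman correlation of a library with its own group was 0.943 to 0.957 with Fe and 0.967 to 0.972 without (exact permutation p 0.1, adjusted 0.129). Unaligned reads made up 14.8% ± 0.479 of all reads with Fe and 15.8% ± 0.287 without (SD, n = 3 each; exact permutation p 0.1, adjusted 0.129), and the part of this in the results was not tested.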

How the data were processed

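Each library has 1 deposited file of raw counts per gene ID, not normalised by the authors. The tools named, per the submitters' processing notes, are edgeR 3.16.5, HTSeq 2.2.1, HISAT2 2.0.5 and Trimmomatic 0.36. For settings, genome build, annotation version and strand the sources used here give nothing. The Potri form of the IDs is that of a Populus trichocarpa annotation, not one of the sampled species. What this did to the counts was not tested. The 5 rows of reads given to no gene stayed out of library sizes and tests. Groups follow the labels' characteristics; shoot titles read CK (Fe-sufficient) and WT (Fe-deficient), which the labels do not explain.

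The 6 shoot libraries were fitted with edgeR 4.0.16 (R 4.3.3; quasi-likelihood F test, robust, TMM, filterByExpr with minimum count 10), with Benjamini-Hochberg adjustment over all tested genes and a threshold of 0.05. Standard errors are |log2 fold change| over the root of the F statistic. Shoot and root responses were compared as a contrast in 1 fit of all 12 libraries. CPM are TMM-normalised except in shares of gene counts and the check of the tissue label. Log2 levels used CPM + 0.5. Library measures had two-sided exact permutation tests. The code was tested on simulated data.

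Named IDs are the 2 rises and 2 falls largest in mean CPM difference among called genes whose groups do not overlap. Members, classes and tests were chosen with earlier results of these data known. Gene lists by function could not be applied to unnamed IDs. No pair of replicates agreed within sampling noise. Alternatives were DESeq2 1.42.0, other scalings, filters and thresholds, 1 fit of all 12 libraries, the replicate block and leaving out each replicate.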

Additional observations from a re-analysis of the deposited data

Results flagged for a closer look

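For 2 of the 4 printed IDs the response to Fe deficiency differed between shoots and roots by the test of the difference itself. That test passed for 110 of the 252 shoot calls and for 1.25% of the 25046 genes in the fit. The 4 IDs were chosen for their shoot change, which favours such a difference. The shoot minus root log2 difference was 1.54 for Potri.001G168200 (adjusted p by edgeR 0.00298) and -1.57 for Potri.005G239300 (adjusted p by edgeR 0.0283). For Potri.001G168200 the adjusted p by edgeR was 0.00264 to 0.0108 when each shoot library was left out in turn, and for Potri.005G239300 it was 0.0238 to 0.0757. In 3 of 3 Fe-deficient libraries of each tissue, the level lay on one side of all Fe-sufficient ones, in opposite directions in shoots and roots. For shoots this was a condition for choosing the IDs, and it held for 14.5% of all genes tested in shoots. The same share over the genes tested in roots was not counted, so the root separation is given as a description. Neither root change passed the test in roots (adjusted p by edgeR 0.118 for Potri.001G168200 and 0.187 for Potri.005G239300).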

How the results depend on the processing

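The 252 shoot calls (137 rose, and 23 fell from above 1000 CPM) became 517 with DESeq2 (241 rose, 276 fell, 43 of these above 1000 CPM), 437 with no filter on low counts (219 rose, 218 fell) and 83 at an adjusted p under 0.01 (55 rose, 28 fell, 7 of these above 1000 CPM). With a change of at least 2-fold required, 69 fell, 15 of them above 1000 CPM. With library totals alone 243 rose and 63 fell, and the median log2 fold change above 1000 CPM was -0.39. With upper-quartile factors 61.0% of 228 calls rose. Leaving out 1 shoot library gave 64 to 571 calls (49 to 229 rose, 13 to 342 fell, 3 to 30 of these above 1000 CPM), a median of -0.70 to -0.55 above 1000 CPM, and 104 to 255 genes for the difference between shoot and root responses, which was 313 with all libraries and 834 with DESeq2. The replicate block gave 134 calls (88 rose, 46 fell, 9 above 1000 CPM), of which 124 were among the 252. Same-numbered shoot libraries did not deviate together (correlations of -0.16, -0.002 and 0.12), and not every library correlated best with its own number, so the numbers were not taken to pair them. Without the 10 genes most abundant over the 6 libraries, the share of gene counts in each library's next 10 changed by -1.16 percentage points in Fe-deficient shoots. With all genes kept, the share of each library's own 10 most abundant genes changed by -2.59 percentage points. At 30 counts or more, 3 genes were counted only in Fe-deficient and 0 only in Fe-sufficient shoots. Rises with another rise nearby numbered 10 within 1 ID and 19 within 10 IDs, and falls 2 and 9. Errors were larger for lower genes, with a median standard error of the log2 fold change of 0.37 at 1 to 10 CPM and 0.20 at 10 to 100 CPM; the part of depth in this was not tested.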
